A study of Drosophila melanogaster with 81 samples.

Results

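The data compared here are the positions of trimethylation of histone H3 at lysine 36 (H3K36me3) in embryos without the replication-dependent histone genes and in wild-type embryos, 4.5 to 5 h after egg laying. They were mapped by CUT&Tag, in which a transposase tethered to an antibody inserts sequencing adapters next to the chromatin mark that the antibody binds. The members are all peaks in the H3K36me3 lists of the genotypes at this age, 6093 in w1118 and 7708 in HisC, or 13801 of the 233093 peaks in the 26 lists of the series analysed here. Each list stands for 2 libraries, and no file gives a value per library. The wild-type embryos were w1118. The mutants, here called HisC, carried Df(2L)HisC, P{GAL4-twi.2xPE} over Df(2L)HisC, P{UAS:eYFP}AH2, so that the deficiency was homozygous, and they were picked by eYFP, which the GAL4 driven by twi regulatory sequence turned on. w1118 carries neither transgene, and deficiency, genetic background, transgenes and selection therefore cannot be told apart. Whole embryos were used in both genotypes, from egg lays at 25°C.

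H3K36me3 is laid down over the bodies of transcribed genes, by Set2, which travels with elongating RNA polymerase II. Proteins that read the mark include MRG15 and, on the male X chromosome, the MSL complex, while demethylases such as Kdm4A remove it. In flies the mark covers the genes used by most cells, the housekeeping genes, and genes of chromosome 4 and of heterochromatin have it as well. The replication-dependent histone genes supply new histones in each S phase. Embryos that lack them live at first on maternal histones.

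Where a value is 0, the list has no peak, and the mark itself may still be there. Sequencing depth and peak height are unknown, no value has a replicate error, and no difference was tested: values are called lower or higher in one list than in the other. Fewer marked cells and less mark per cell cannot be told apart in whole embryos. Neither list had a peak over the 111 replication-dependent histone genes (2L 21416953–21541681, dm6), so these lists give no check of the deletion. Of the lists of marker genes for germ line, mesoderm, muscle, neuroectoderm, dorsal ectoderm and endoderm, each had members with a peak.

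The lists covered nearly the same length in a different way. H3K36me3 peaks covered 11.4 Mb in w1118 and 11.3 Mb in HisC. The median peak was 1544 bp wide in w1118 and 1093 bp in HisC. Peaks of at least 3000 bp made up 19.7% of the w1118 list (1202 peaks) and 11.4% of the HisC list (881 peaks), and peaks under 500 bp made up 15.7% and 22.2%. HisC thus had more peaks, and narrower ones. Splitting of wild-type peaks was a minor part of this: of the w1118 peaks, 4254 met exactly 1 HisC peak, 363 met 2, 25 met 3 or more and 1451 met none.

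Of the w1118 peaks, 76.2% were overlapped by at least 1 bp of a HisC peak (Clopper-Pearson 95% interval 75.1% to 77.3%, counting error only). Of the HisC peaks, 63.7% were overlapped by a w1118 peak (62.7% to 64.8%). The shared length was 6.998 Mb, or 61.6% of the w1118 length and 62.2% of the HisC length. Peaks without a partner were narrow, with a median of 612 bp in the w1118 list and 616 bp in the HisC list, against 1962 bp and 1532 bp for peaks with one. They also lay more often outside annotated genes: 18.2% of the w1118 peaks without a partner and 16.6% of those in HisC, against 4.35% and 3.93% of the peaks with one.

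Over gene bodies, HisC had a lower mean covered share. Of 13946 protein-coding genes, 7965 had a peak in at least 1 of the lists, 5415 of them in both, 1053 in w1118 alone and 1497 in HisC alone. A gene was called marked when at least 50% of its body lay in peaks. This held for 3205 genes in w1118 (23.0% of all genes) and 2399 in HisC (17.2%). Marked in both were 1803 genes, 1402 were marked in w1118 only and 596 in HisC only. HisC thus reached more genes with some peak and covered fewer of them over most of their length. Over the 7965 genes with a peak, the mean covered share was 41.3% in w1118 and 35.0% in HisC, and the median difference, HisC minus w1118, was −0.95 percentage points.

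A gene was called lower or higher when its covered share differed by at least 50 points, a size rule and not a test. By this rule 765 genes were lower in HisC (9.60% of the 7965) and 289 were higher (3.63%). These percentages are the background for every count below. No peak at all was left in HisC for 465 of the 765, and 237 of the 289 had none in w1118. Another gene overlapped 49.7% of the lower genes, 42.6% of the higher ones and 48.0% of all genes with a peak, and for such genes the peak cannot be assigned to one of them.

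**Figure D1:**
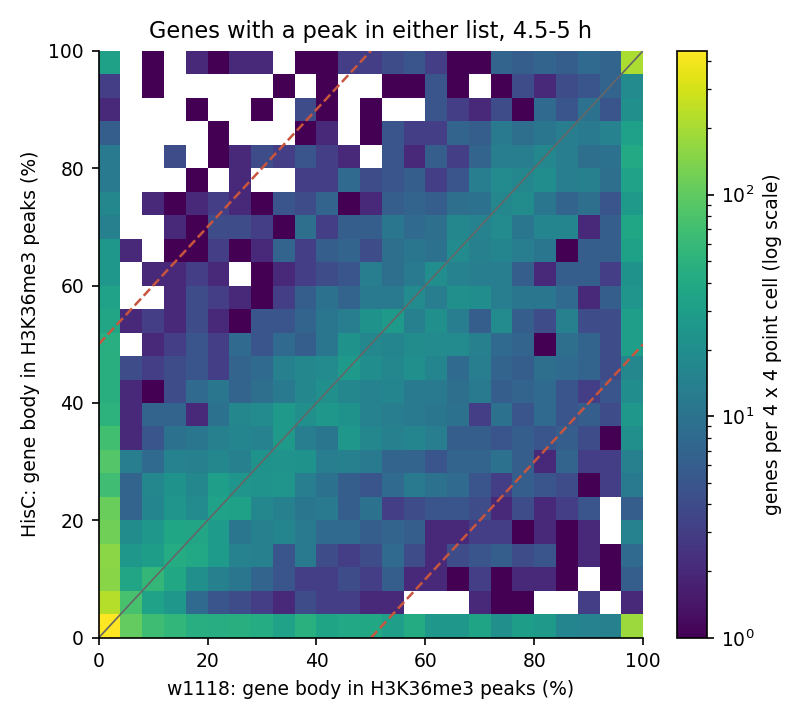
Share of each gene body in H3K36me3 peaks in w1118 (horizontal axis, %) and HisC (vertical axis, %) for the 7965 genes with a peak in either list, as the number of genes per cell on a log scale; the solid line marks equal shares and the dashed lines a difference of 50 points. More genes lie below the lower dashed line (765) than above the upper one (289), and many of both sit on the axes, where 1 list has no peak.

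The difference in covered share was largest in short genes. In genes of up to 1000 bp the mean covered share was 61.6% in w1118 and 43.4% in HisC, and 26.7% of the 619 such genes with a peak were called lower. In genes of 1000 to 2000 bp it was 58.4% and 45.1%, with 18.2% called lower, and in genes of 5000 to 10000 bp 29.8% and 29.3%, with 1.44% called lower. Above 10000 bp the means were slightly higher in HisC, at 17.2% against 15.5% up to 20000 bp and 6.65% against 5.34% beyond. Summed over genes, those over 20000 bp had 1.49 Mb in peaks in w1118 and 2.05 Mb in HisC. Those of up to 1000 bp had 0.29 and 0.20 Mb. The median length was 1544 bp for genes called lower and 1562 bp for genes called higher, against 3066 bp for all genes with a peak. A single peak can cover a short gene whole, so the size rule is met more easily by short genes in both directions. Median lengths of the lists were 2266 bp for replication, 3045.5 bp for mitosis, 2274.5 bp for splicing, 1381.5 bp for proteasome, 1106 bp for respiratory chain, 983 bp for cuticle and 9995.5 bp for muscle genes.

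**Figure D2:**
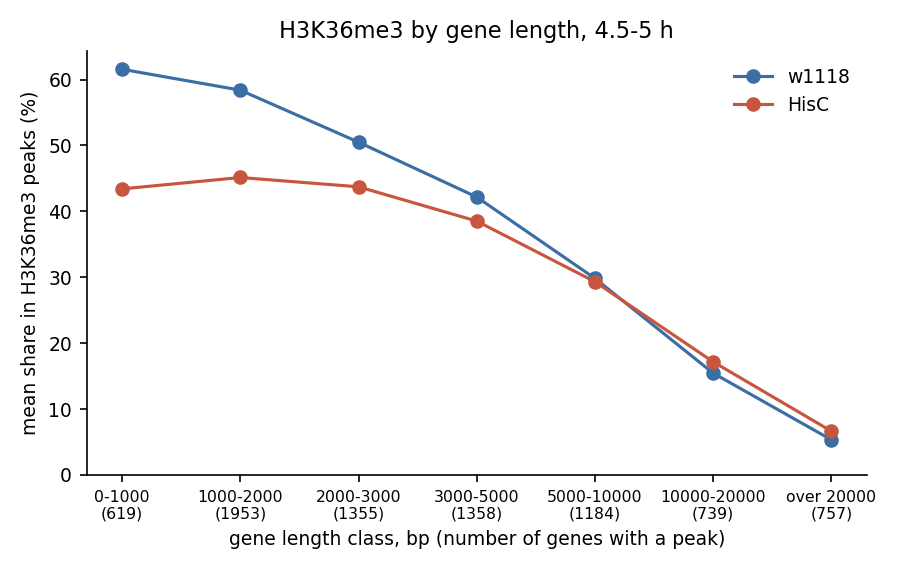
Mean share of the gene body in H3K36me3 peaks (%) for genes with a peak in either list, by gene length class in bp, with the number of genes in brackets; blue points are w1118 and red points HisC. The gap is widest below 1000 bp, at 61.6% against 43.4%, and closes at 5000 to 10000 bp, at 29.8% against 29.3%.

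Along genes, the difference lay toward the promoter end. The gene table has no strand, so 2702 genes of at least 2000 bp were oriented by H3K4me3, the mark of active promoters: each had H3K4me3 within 500 bp of 1 end in both genotypes and none at the other end. Genes were cut into 10 equal parts, or deciles, counted from the H3K4me3 end. In the first decile the mean covered share was 31.3% in w1118 and 18.5% in HisC. In the fifth decile it was 45.2% and 36.4%. In the last decile it was 29.1% and 29.5%. The covered share was thus lower in HisC over the promoter end and the middle, and about the same at the far end. The highest decile was number 7 in w1118 (48.7%) and number 8 in HisC (43.8%).

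The first decile was lower in HisC in short and in long genes. In 1526 oriented genes of 2000 to 5000 bp the first decile was covered to 34.5% in w1118 against 16.7% in HisC, and the last to 32.7% and 31.3%. In 1176 genes over 5000 bp it was 27.2% and 20.8% in the first decile and 24.4% and 27.1% in the last, so that in long genes the order of the genotypes turned over toward the far end. At 5.5 to 6 h, the first decile of the 2702 genes was covered to 47.6% in w1118 against 20.8% in HisC and the last to 38.6% and 26.8%, and HisC was lower throughout.

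**Figure D3:**
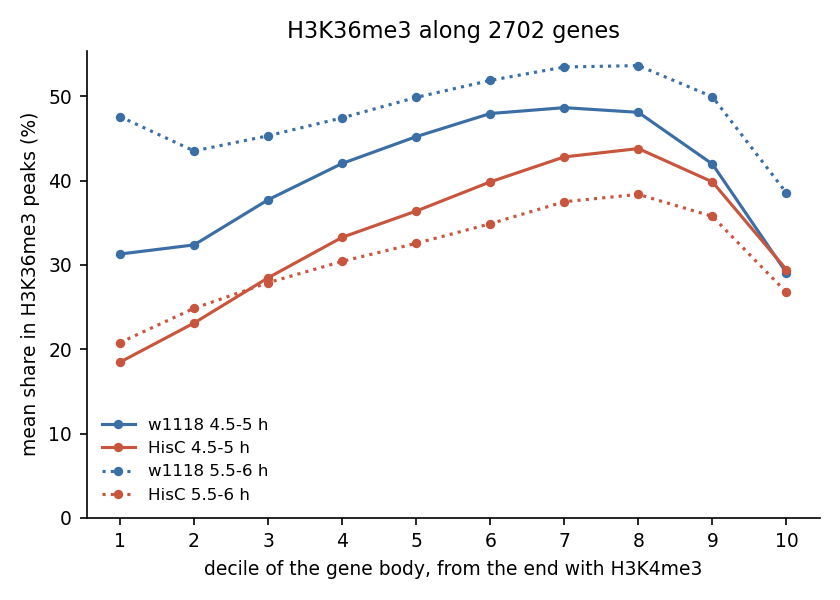
Mean share in H3K36me3 peaks (%) in each decile of the gene body, counted from the end with H3K4me3, over 2702 genes oriented by H3K4me3; blue lines are w1118 and red lines HisC, solid at 4.5 to 5 h and dotted at 5.5 to 6 h. At 4.5 to 5 h the lines are apart in the first decile (31.3% and 18.5%) and meet in the last (29.1% and 29.5%).

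The 15 named genes with the largest difference in covered length among those called lower are named here without a theme. PNUTS (2L 870465–877038), a regulatory subunit of protein phosphatase 1, had 5537 bp of its body in w1118 peaks and 875 bp in HisC peaks, or 84.2% and 13.3%. SMC5 (3L 21569176–21573523), of the SMC5/6 complex that guards genome stability, went from 4290 bp (98.7%) to no peak. BubR1 (2R 5969099–5974385), of the spindle checkpoint, was covered to 72.6% and 8.02%. Dp (2R 13222433–13228202), the partner of the E2F cell cycle factors, was covered to 76.0% and 12.9%, and Rbf (X 797090–801479), the fly retinoblastoma protein that holds E2F in check, to 89.4% and 7.40%.

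Nup133 (3R 22690607–22694772), a nuclear pore protein, was covered to 85.7% in w1118 against 2.38% in HisC. Hmr (X 10590920–10595855), a heterochromatin protein known from hybrid lethality, had 4089 and 544 bp in peaks. vir (2R 23360192–23366355), of the complex that methylates adenosines in mRNA, was covered to 93.1% and 25.4%, and Cpsf6 (3L 8310493–8315502), of mRNA 3′ end processing, to 95.3% and 28.4%. The other genes of this group were PIG-S, scny, ana3, Glos, Grip84 and sle. All 15 were lower at 5.5 to 6 h as well, with shares in HisC of at most 46.3% and in w1118 of at least 52.8%.

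Nearly all DNA replication genes were lower. The 41 listed genes of replication origins and forks all had a peak, and their mean covered share was 70.6% in w1118 and 41.2% in HisC, against 23.6% and 20.01% over all genes. Lower in HisC were 37 and higher 4, that is 90.2% lower, where 52.9% of all genes with a peak were lower. Past the 50-point rule, however, were 6 lower and 0 higher, or 14.6%, not far from the background of 9.60%. Most of these genes were thus lower by a part of their body. Of the 6, RfC4 (3L 4134860–4136038), of the clamp loader, went from 99.8% to no peak, Sld5 (3R 26055657–26056547), of the GINS helicase complex, from its whole body to none and Orc6 (2R 9845458–9846485), of the origin recognition complex, from 78.9% to none. Among the exceptions, Cdc6, which loads the helicase, was covered to 84.3% and 87.2%, and Fen1, the flap endonuclease, to 56.1% and 68.1%.

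Genes marked in at least 1 list give a second background, since a gene without much H3K36me3 in either cannot be called. This choice uses the compared values: a gene marked in w1118 only is lower in HisC by definition. All 34 replication genes and all 30 splicing genes so chosen were marked in w1118, and 15 and 14 in HisC. The shares of lower genes among marked genes, here and below, are therefore partly fixed by the choice and are description only. Over all 3801 genes marked in at least 1 of the lists, 65.0% were lower in HisC, 20.1% were called lower and 7.60% higher. Of the 34 replication genes among them, 91.2% were lower and 17.6% called lower. Of the 23 such mitosis genes, 87.0% were lower and 30.4% called lower (7 genes). Those named among the mitosis genes were Spc25 (3R 12961745–12963249), a kinetochore protein, from its whole body to no peak, aurB (2L 10856797–10858094), the Aurora B kinase, from 85.4% to none, and SMC2 (2R 14848621–14852653), of condensin, from 71.1% to none. CycA, the mitotic cyclin, was covered to 46.9% and 50.5%.

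Genes that make, carry or replace histones were mostly lower. All 7 genes of the histone locus body with a peak, which transcribe and process histone mRNA, were lower in HisC, with a mean of 64.1% in w1118 and 29.8% in HisC over the 8 listed. Slbp (3R 29152074–29153266), which binds the stem-loop of histone mRNA, went from 83.2% to no peak, Sym (3R 5738178–5742476) from its whole body to 49.5% and Cpsf73 (3R 18661121–18663552), the nuclease of histone mRNA processing, from its whole body to 59.8%. Of 15 histone chaperone genes, 13 were lower. asf1 (3L 19618894–19620398), which hands on H3 and H4, was covered to 51.4% in w1118 and had no peak in HisC. Hira (X 7722119–7725917), which places histone H3.3 without replication, went the other way, at 53.8% and 85.0%, but was at 81.3% and 18.1% at 5.5 to 6 h.

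A pair of neighbouring chaperone genes of the nucleoplasmin family went in opposite directions. Nph (3R 30003681–30004861) had 1053 bp in the w1118 list and 421 bp in the HisC list, and Nlp (3R 30004785–30010352) had 0 bp in the w1118 list and 3124 bp in the HisC list. The genes overlap at their ends. Among histone variants, cid (2R 13485617–13486631), the centromeric histone H3, was covered over its whole 1015 bp in w1118 and over 7 bp in HisC, and at 5.5 to 6 h over its whole length in w1118 and to 60.8% in HisC. His3.3A was covered to 78.0% and 66.5%, His4r to 69.9% and 45.7%, and His3.3B, His2Av and BigH1 had no peak in either list.

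The genes that write, read and erase H3K36me3 did not move together. Set2 (X 13413242–13421024), the enzyme of trimethylation, was covered to 57.9% in w1118 against 41.01% in HisC. NSD, another H3K36 methyltransferase, was at 82.4% and 78.1%, and ash1, also one, at 29.4% and 26.8%. Of these writers Set2 differed most. Called lower were the reader MRG15 (3R 15276440–15278109), with its whole body in peaks in w1118 and 18.3% in HisC, and the demethylase Kdm4A (2R 7922775–7924988), at 75.7% and no peak. HDAC1, a deacetylase, was at 73.2% and 33.5%. Kdm2, Kdm4B, JIL-1 and Jasper were slightly or clearly higher in HisC, with Jasper, which binds H3K36 methylated nucleosomes, at 37.7% and 58.5%. The elongation factor gene Spt6 was at 64.6% and 47.4%, and the corepressor gene Sin3A at 31.1% and 15.5%. In all, 2 of 12 were called lower and 0 higher.

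Of the 5 MSL complex genes, which carry out dosage compensation of the male X chromosome, 4 were lower and none was called. mle, the helicase, was covered to 56.0% and 27.2%, msl-1 to 47.3% and 22.8%, mof, the acetyltransferase, to 34.0% and 17.7% and msl-3, a reader of H3K36me3, to 76.6% and 67.6%. msl-2 was at 43.4% and 48.3%. The X chromosome itself, where the complex acts in males, had 1925 kb in peaks in w1118 and 1785 kb in HisC, and its genes were called lower (9.57%) at the rate of all genes (9.60%). Genes for heterochromatin proteins were lower in 13 of 15 with a peak, and 4 were called lower, among them HP4 (3L 7975438–7976154), an HP1-binding protein, from 82.8% to no peak. HP1c was at 59.6% and 64.5%.

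Housekeeping lists for gene expression and energy were lower too. Splicing genes were covered to 63.7% in w1118 against 42.8% in HisC on average. Of the 30 splicing genes marked in either list, 86.7% were lower and 6 were called lower, a share close to the 20.1% of all marked genes, with SmD3 (2R 12168731–12170003), a core protein of spliceosomal snRNPs, from its whole body to no peak. Proteasome genes were at 51.8% and 37.7%, and 82.8% of the 29 marked ones were lower. Of the 32 with a peak, 6 (18.75%) were called lower, near the 18.2% of all genes of 1000 to 2000 bp. Rpt5 went from its whole body to 20.9% and Prosbeta5 from 73.1% to no peak, while the regulatory subunit gene Rpn1 was at 42.4% and 81.6% and Rpt4 at 16.6% and 72.4%.

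Genes of the ribosomes differed by compartment only in part. Mitochondrial ribosomal protein genes had a mean of 60.0% in w1118 and 39.4% in HisC, and 16 of 65 with a peak were called lower and 4 higher. Their median length was 909 bp, and 24.6% called lower is near the 26.7% of all genes of up to 1000 bp. Cytoplasmic ribosomal protein genes had a mean of 53.9% and 44.6%, with 9 called lower and 5 higher of 75. That is 12% called lower, below the 18.2% of genes of 1000 to 2000 bp. RpL38, RpL41 and RpS29 went from full coverage to no peak, and RpL27 from no peak to 59.7%. The ribosomal protein list was therefore mixed.

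Translation factor genes had a mean of 48.2% in w1118 and 37.1% in HisC, tRNA synthetase genes 65.7% and 56.5%, and genes of the respiratory chain and ATP synthase 51.1% and 38.8%. Of the 67 respiratory chain and ATP synthase genes with a peak, 39 (58.2%) were lower, against 52.9% of all genes with a peak. Called lower were 12 of them (17.9%), near the 18.2% of all genes of 1000 to 2000 bp. All 8 genes of the CCT chaperonin, which folds actin and tubulin, were lower, by little: their mean was 65.8% and 59.8%, and none was called. CCT3, for example, was at 82.3% and 76.7%. Differences between lists of housekeeping genes were thus larger for replication, mitosis and splicing than for tRNA synthetases and CCT, as a description of these lists.

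**Figure D4:**
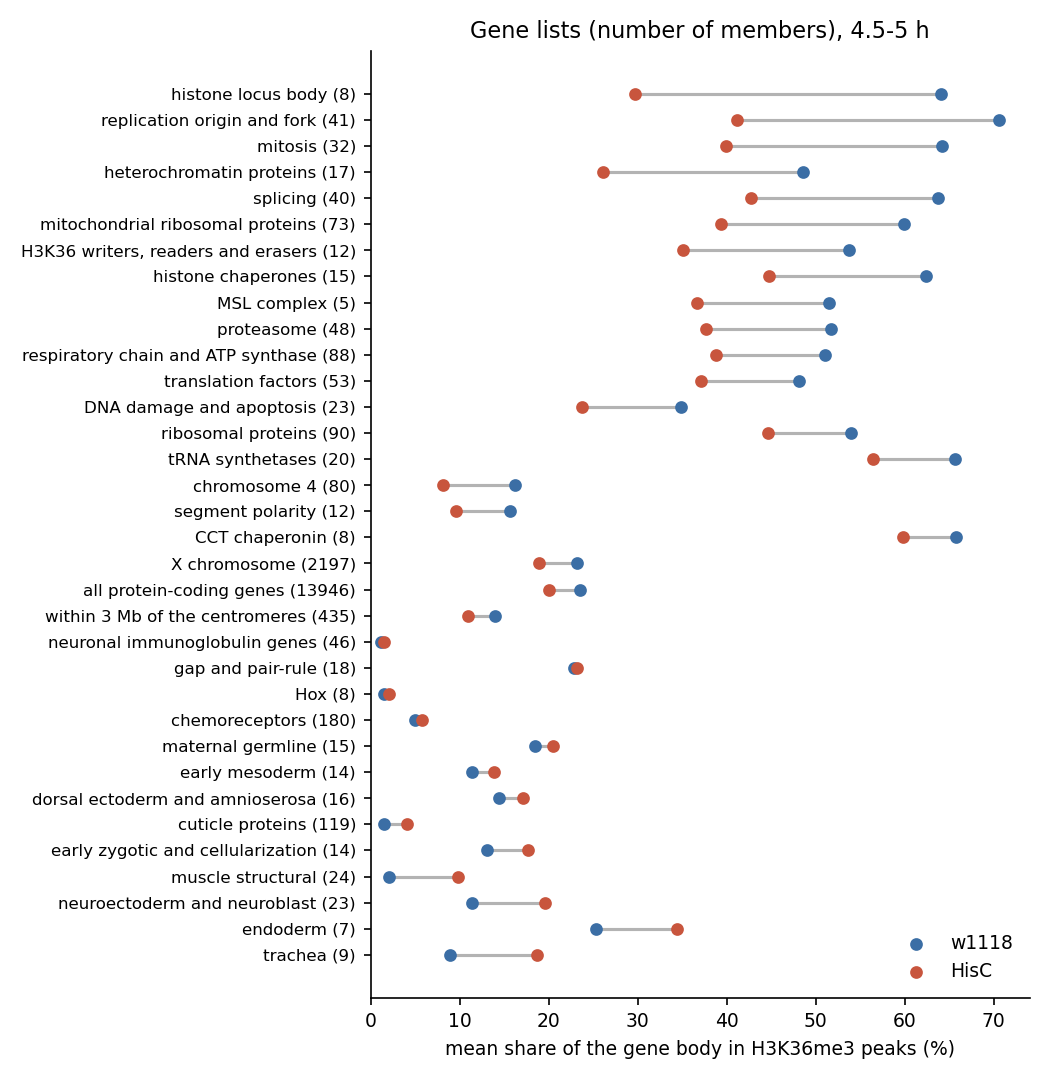
Mean share of the gene body in H3K36me3 peaks (%) over all members of each gene list at 4.5 to 5 h, with the number of members in brackets; blue points are w1118, red points HisC, and grey bars join the genotypes. Lists of genes used in most cells lie to the right with HisC lower, as for replication (70.6% and 41.2%), and most lists of tissue genes lie to the left with HisC at the same level or higher, as for muscle (2.11% and 9.85%), with segment polarity genes lower (15.7% and 9.59%).

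Genes of single tissues, apart from endoderm genes, had low covered shares in both lists. As far as genes of single tissues differed, they were mostly higher in HisC. Muscle structural genes had a mean of 2.11% in w1118 against 9.85% in HisC, with 13 of 14 genes with a peak higher and none past the 50-point rule. Act88F, an actin of flight muscle, had 0 bp in the w1118 list and 952 bp in the HisC list, or 43.1%, and Act87E, another actin, 0 and 661 bp, or 27.6%. Actn, the gene of alpha-actinin, was the exception, at 18.3% and 9.63%. The higher values were thus spread over many genes and small, and 10 of the 24 listed had no peak in either list.

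Neuroectoderm and neuroblast genes had a mean of 11.4% in w1118 against 19.6% in HisC, with 12 of 18 higher. Those called higher were mira (3R 19931799–19935120), an adaptor of asymmetric division, from 10.4% to 61.5%, and wor (2L 15423297–15425580), a Snail-family factor of neuroblasts, from no peak to 60.4%. wor was at 78.8% and 82.1% at 5.5 to 6 h. Lower in HisC were 6 members, among them nerfin-1, from 27.4% to no peak, and elav, at 13.9% and 9.63%. dpn went from no peak to 44.7%, but was at 36.2% and 13.2% at 5.5 to 6 h. At that age no member of this list was called. Of the genes for tracheal development, 6 of 7 with a peak were higher, with vvl (3L 6790158–6794941), a POU-domain factor, from 1.40% to 51.9%. Endoderm genes had a mean of 25.4% and 34.4%, against 23.6% and 20.01% over all genes. Among them fkh, a forkhead factor, went from no peak to 49.6%. At 5.5 to 6 h fkh was at 3.66% in w1118 and 3.64% in HisC. Of the 7 endoderm genes, 5 were higher and 2 lower in HisC. Only 2 were marked in either list, and these were the lower ones: tll, at 84.8% and 77.6%, and hkb, at 71.8% and 61.2%.

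Patterning genes went both ways by their means. By count, more members were lower than higher in the gap and pair-rule, segment polarity and Hox lists. Gap and pair-rule genes had a mean of 22.9% in w1118 and 23.2% in HisC, and 10 of 15 were lower. eve (2R 9979319–9980795), a pair-rule gene, had no peak in w1118 and 85.6% in HisC, and at 5.5 to 6 h the order was turned over, at 67.3% and 22.4%. ftz and gt, which w1118 covered to 38.6% and 25.8%, had no peak in HisC. Segment polarity genes were at 15.7% and 9.59%, with 8 of 11 lower and arm, the fly beta-catenin, from 47.9% to 7.95%. Hox genes had small covered shares, at 1.53% and 2.08%, and 6 of the 8 had a peak, 4 lower and 2 higher in HisC. Their median length is 30563 bp, and all genes over 20000 bp with a peak averaged only 5.34% and 6.65%. Cuticle protein genes were at 1.46% and 4.13%, with 3 called higher and 1 lower of the 16 with a peak. Maternal germline genes were at 18.5% and 20.5%, with 8 of 10 higher, and no member was called.

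The other lists were near their background or went both ways. Genes of DNA damage and apoptosis had a mean of 34.9% for w1118 and 23.8% for HisC, with 10 of 19 lower, and 3 called lower, among them SMC5 and mus304, of the DNA damage checkpoint, at 92.6% and 11.6%. Dark, the apoptosome gene, was at 37.3% and 58.4%. Early zygotic and cellularization genes were at 13.1% and 17.7%, early mesoderm genes at 11.4% and 13.9%, and dorsal ectoderm and amnioserosa genes at 14.4% and 17.1%, where Doc3, a T-box gene, was called lower with 1724 and 534 bp, and its paralog Doc1 was at 65.8% and 86.8%. Chemoreceptor genes were at 5.02% and 5.82%, and neuronal immunoglobulin genes at 1.18% and 1.46%. Median lengths were 21403.5 bp for early mesoderm and 33176.5 bp for neuronal immunoglobulin genes, and covered shares are small in long genes.

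The 15 named genes with the largest difference among those called higher follow. 18w (2R 20111511–20116932), a Toll-family receptor, had 0 bp in the w1118 list and 4135 bp in the HisC list, or 76.3%. Hsl (2R 20257650–20261726), hormone-sensitive lipase, had 79 and 3268 bp, or 1.94% and 80.2%. Men-b (3R 27151662–27157603), a malic enzyme, had 0 and 3214 bp, and Sardh (2R 17753555–17756422), sarcosine dehydrogenase, 0 and 2569 bp. pins (3R 27582840–27586376), which orients the spindle in asymmetric division, went from no peak to 77.3%, mas (3L 4161666–4167464), a protease-like protein of muscle attachment, from none to 51.4%, and mor (3R 15968134–15972913), a core subunit of the SWI/SNF remodeller, from none to 59.2%. The other genes of this group were Med, Nlp, Cc2d2a, Aps, Trx2, Cyp317a1, vvl and Vajk1. Unlike the group called lower, not all of these kept their direction at 5.5 to 6 h. Med, Aps and Trx2 were then lower in HisC, with differences of −52.2, −12.9 and −10.2 points. Vajk1 then had no peak in either list, and Cyp317a1 was close, at 49.5% in w1118 and 51.2% in HisC. The rest of the group was higher in HisC at that age as well, by 21.6 points (18w) to 75.7 points (Sardh).

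Some genes with long coverage had close shares in both lists. The named genes with most covered length in both and under 5 points of difference were shot, lola, tweek, dpy, nej, Svil, HERC2 and LRP1. shot (2R 13864237–13942110), a giant linker of actin and microtubules, had 13292 bp in the w1118 list and 10049 bp in the HisC list. lola (2R 10481894–10543291), a gene of many transcription factor isoforms, had 10711 and 11174 bp. nej (X 9665442–9687066), the fly CBP acetyltransferase, had 9417 and 9017 bp, and dpy (2L 4477462–4614300), a giant extracellular protein, 9656 and 10587 bp. The shortest of the 8, HERC2, is 17853 bp long, and 47.3% of it lay in peaks in w1118 and 50.4% in HisC. These genes are close in share and not always in length, as the values of shot show. At 5.5 to 6 h lola was at 31.6% and 15.3%, tweek at 53.4% and 27.2% and nej at 58.5% and 34.3%.

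Most genes called lower had H3K4me3 at an end in either genotype. H3K27ac, an acetylation of active promoters and enhancers, was found at fewer of them in HisC. Of the 765, 94.2% had an H3K4me3 peak within 500 bp of an end in w1118 and 87.2% in HisC. For H3K27ac the shares were 80.3% and 54.6%. Over all 7965 genes with an H3K36me3 peak they were 70.7% and 69.3% for H3K4me3 and 69.2% and 48.8% for H3K27ac, and in the 1803 genes marked in both lists 90.9% and 90.6%, and 76.3% and 69.8%. The share with H3K27ac was thus lower in HisC in each of these classes, and also in genes called higher, at 44.3% and 39.4%. Genes called higher had H3K4me3 in 36.3% in w1118 and 51.6% in HisC, and H3K27me3, the mark of Polycomb repression, over at least 50% of the body in 8.30% and 13.1%, against 3.39% and 3.44% of all genes with a peak. The H3K27me3 shares were close to those of the 5981 genes with no H3K36me3 peak in either list, at 8.33% and 11.1%. By their names, the H3K4me3 and H3K27ac lists hold narrow peaks and the rest broad peaks, so marks are compared between genotypes and not with each other.

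Peaks of 1 genotype differed in the other marks they met. Of the 2795 HisC peaks without a w1118 partner, 42.8% met an H3K4me3 peak of HisC and 9.77% one of w1118, 68.4% met H2BK16ac of HisC, and 36.2% met H3K27me3 of HisC. Of the HisC peaks with a partner, 69.998%, 50.1%, 69.0% and 21.8% did so. Of the 1451 w1118 peaks without a HisC partner, 42.2% met H3K4me3 of w1118, 57.8% H3K27ac and 30.3% H3K27me3. Of the w1118 peaks with a partner, 55.3%, 44.7% and 11.1% did so. Peaks found in 1 genotype alone thus met H3K27me3 of their own genotype more often than shared peaks did, in both genotypes, although they were narrower.

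The widest peaks of 1 genotype alone were 3902 to 4557 bp in w1118 and 3986 to 5097 bp in HisC. In w1118, the widest lay in Alk (2R 16629206–16633762), a receptor tyrosine kinase of the visceral mesoderm, and was the only one of the 8 under which w1118 had H3K27me3 (3355 bp). The next spanned SMC5 (3L 21569005–21573465). Under it, H3K4me3 covered 1046 bp in the w1118 list and 1066 bp in the HisC list, so that the promoter mark had about the same length in both lists. The third (3L 17425251–17429498) spanned the small genes COX7B, Polr3G and Gorab and reached into frc and Coq4, and under it H3K4me3 went from 1920 to 942 bp and H3K27ac from 1355 to 251 bp. In HisC, the widest lay over Mrp4 (3R 11572649–11577745), a transporter of the ABC family, where HisC also had 1016 bp of H3K4me3 and w1118 none. Others lay in pwn, at Best2 and Ldh, and in Msp300, a giant protein that anchors muscle nuclei. Of the 8 widest in HisC, 3 lay in no gene of the table, on 2R and 3L, and all 8 met H3K27me3 of HisC, over 562 to 3985 bp.

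Chromosome 4, the small and largely heterochromatic chromosome whose genes are nonetheless active, stood apart from the large arms. Its H3K36me3 peaks numbered 116 in w1118 and 62 in HisC and covered 138 kb and 59.1 kb, a log2 ratio of −1.22, where the large arms lay between −0.11 and 0.08. Of its 80 genes, 62 had a peak: 49 were lower and 13 higher in HisC, with mean shares over all 80 of 16.3% and 8.17%. Few passed the 50-point rule: 3 were called lower, or 4.84%, and 1 higher. The median length of the 80 genes is 10090 bp.

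The chromosome 4 genes called, named after their values were seen where they are in no list, are short. Arl4 (4 177348–179389), a small GTPase, went from 97.2% to no peak, Arf4 (4 1124167–1125325) from 66.0% to none and PIP4K (4 1192419–1196848), a lipid kinase, from 53.9% to none. Some genes differed little. Rad23 (4 308093–310822), of protein turnover and DNA repair, was covered to 77.5% and 86.1%, ND-49, a subunit of respiratory complex I, to 66.3% and 61.6%, and ATPsynbeta, of the ATP synthase, to 37.3% and 38.2%. RpS3A was higher, at 33.7% and 95.6%. Longer genes such as eIF4G1, a translation initiation factor (27.9% and 3.16%), and MED26, of the Mediator complex (21.7% and no peak), were lower. Other marks were lower on chromosome 4 to different degrees, with log2 ratios of −1.29 for H3K27me3, −0.74 for H2AK9ac, −0.44 for H2BK16ac and −0.33 for H3K27ac, while H3K4me3 was at 0.30. Over the whole lists the ratios were −0.25, −0.04, 0.34, −0.02 and 0.27 in the same order.

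Next to the centromeres the direction was the opposite. Within 3 Mb of the centromere end of the 5 large arms, H3K36me3 covered 302 kb in w1118 and 640 kb in HisC, and these were 2.66% and 5.69% of each list. The arms differed. On 2R it was 8.71 kb in 11 peaks in w1118 and 155 kb in 137 peaks in HisC, on 3L 21.7 and 83.7 kb and on 3R 42.4 and 152 kb. On 2L it was 155 and 161 kb and on X 74.4 and 88.8 kb, which is nearly the same. Within 3 Mb the difference was thus on 2R, 3L and 3R. Within 1 Mb it was 18.7 and 26.4 kb on 2L, 13.2 and 19.7 kb on X and 12.5 and 16.9 kb on 3L, while 2R had no peak in w1118 and 67.5 kb in HisC. At 5.5 to 6 h, 2L and X were lower in HisC within 3 Mb, with log2 ratios of −0.36 and −0.29. The Y chromosome, also heterochromatic, had 24.4 kb in w1118 and 53.3 kb in HisC, on 22 and 50 peaks.

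**Figure D5:**
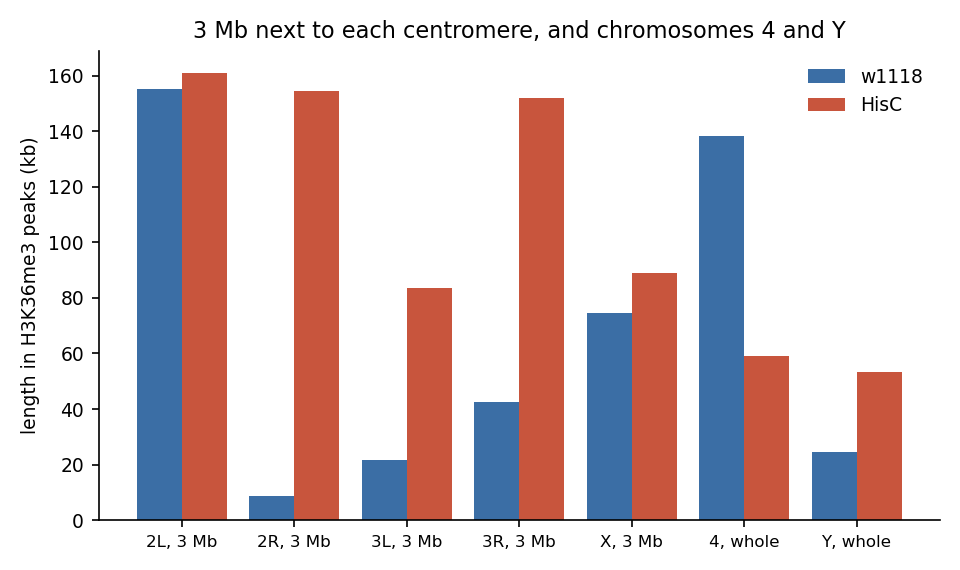
Length in H3K36me3 peaks (kb) within 3 Mb of the centromere end of each large arm and on the whole of chromosomes 4 and Y, as bars for w1118 (blue) and HisC (red) at 4.5 to 5 h. HisC is far higher on 2R (8.71 and 155 kb), 3L (21.7 and 83.7 kb) and 3R (42.4 and 152 kb), nearly the same on 2L and X, and lower on chromosome 4 (138 and 59.1 kb).

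With distance from the centromere the excess faded. In the first 0.5 Mb, 2.46% of the sequence was in peaks in w1118 and 5.20% in HisC, from 1 to 1.5 Mb 1.54% and 5.38%, and from 3.5 to 4 Mb 5.36% and 7.22%. From 4.5 Mb on, the values were close, at 7.76% and 6.84% from 4.5 to 5 Mb and 9.98% and 10.4% from 10 to 10.5 Mb.

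Most HisC peaks near centromeres met acetylation of HisC. Within 3 Mb, 410 HisC peaks had no w1118 partner, with a median width of 724 bp, against 593 bp for such peaks elsewhere, and 56.6% of them lay in a gene, against 88.0% of such peaks elsewhere. They met H2BK16ac of HisC in 83.9%, H2AK9ac in 82.9%, H3K27ac in 75.4% and H3K4me3 in 48.5%, and H3K4me3 of w1118 in 1.95%. All 540 HisC peaks of these regions met the first 3 marks in 79.8%, 80.2% and 76.7%. For peaks without a partner elsewhere, the 5 shares were 65.7%, 61.7%, 45.6%, 41.8% and 11.1%. Acetylation of w1118 was met as well: of the 410 peaks, 46.1% met H2BK16ac, 41.2% H2AK9ac and 5.37% H3K27ac of w1118. Of the peaks without a partner elsewhere, 47.5%, 52.9% and 22.8% did so. The covered length of the other marks in the same regions was higher in HisC as well, with log2 ratios of 1.45 for H3K27ac, 0.86 for H3K4me3, 0.79 for H2AK9ac and 0.74 for H2BK16ac, beside 1.08 for H3K36me3, and H3K27me3 was at −0.08. Over the whole lists the log2 ratios were −0.02 for H3K27ac, 0.27 for H3K4me3, −0.04 for H2AK9ac, 0.34 for H2BK16ac, −0.01 for H3K36me3 and −0.25 for H3K27me3. The share of each list in these regions was higher in HisC for all 6 marks, with H3K27me3 at 3.71% and 4.19%.

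The mean covered share of genes in these regions was lower in HisC, as it was over all genes. The 435 protein-coding genes within 3 Mb of the centromeres had a mean of 14.0% in w1118 and 10.9% in HisC. Over all genes it was 23.6% and 20.01%. Of the 176 with a peak, 97 (55.1%) were lower, where 52.9% of all genes with a peak were lower. Called lower were 10 (5.68%) and higher 2 (1.14%), below the backgrounds of 9.60% and 3.63%. The following genes were chosen after their values were seen. vtd (3L 27136525–27157999), the cohesin subunit Rad21, had 3968 bp in w1118 and none in HisC, Set1 (3L 25107594–25115180), a histone H3K4 methyltransferase, 2701 bp and none, and RpL5 (2L 22532279–22536884) 2570 and 691 bp. E2f2 (2L 21154293–21156749), a repressive E2F factor, had 1594 bp and none. On 3L, single genes were thus lower while the total was higher. Among the higher ones, the longest differences were in very long genes: Myo81F had 1435 and 63921 bp, DIP-lambda 0 and 43811 bp and lovit 0 and 22658 bp. rl (2R 1071462–1125927), the MAP kinase ERK, had 285 and 5273 bp, and l(2)41Ab (2R 1349392–1443935) 1480 and 7785 bp.

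At 5.5 to 6 h, in other libraries of the same genotypes, part of the genes of each direction was called again. Of the 765 genes called lower, 541 (70.7%) were called lower again and 707 had the same sign, against a background of 17.7% called lower at that age. Of the 289 called higher, 90 (31.1%) were called higher again and 176 had the same sign, against a background of 3.03%. These backgrounds are not matched: they include genes covered too little in both lists to be called. At most 2000 bp long were 68.0% of the lower and 63.3% of the higher genes, against 32.3% of all with a peak. At 5.5 to 6 h 1408 genes were called lower and 241 higher, among 7952 with a peak. Of those called lower 38.4%, and of those called higher 37.3%, were also called in that direction at 4.5 to 5 h. Of the w1118 peaks without a HisC partner, 740 (51.0%) again met a peak in w1118 only, and 363 met none in either genotype. Of the HisC peaks without a w1118 partner, 1202 (43.0%) again met a peak in HisC only, and 1211 met none. Replication genes then had mean shares of 76.0% for w1118 and 42.4% for HisC, and muscle genes 3.38% and 7.81%. Both lists thus had the same direction at both ages. Some smaller differences turned over: dorsal ectoderm and amnioserosa genes were then at 18.2% and 6.93%, maternal germline genes at 21.1% and 18.6%, gap and pair-rule genes at 27.2% and 21.2% and early mesoderm genes at 8.33% and 7.87%.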

How the data were processed

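H3K36me3 CUT&Tag of whole w1118 and HisC embryos at 4.5 to 5 h after egg laying was analysed from 1 deposited peak list per genotype, each for 2 libraries, with positions and no score, count or p-value. Lists of the other marks at this age and of H3K36me3 at 5.5 to 6 h served for description. Per the submitters' processing notes, the tools were Bowtie2 2.3.4.2 with SAMtools 1.9, deepTools 3.3.1, cutadapt 1.17 and Trim Galore 0.6.6, and the build was dm6. For the peak caller, threshold and pooling, the sources used here give nothing; deposited lists are called broad or narrow by their names. Deeper sequencing tends to give more and wider peaks, and the depth is unknown.

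Genes were the 13946 protein-coding genes of the RefSeq table (Release 6, dm6), which has no strand, transcript or sequence. Covered bp were computed in Python 3.11.15 with numpy 2.4.6, pandas 2.3.3 and SciPy 1.17.1, and checked on simulated peaks. With 1 list per group no test between genotypes was possible. The gene lists (31 by symbol or symbol pattern, with 8 symbols not matched), the members and the rules were chosen with earlier results of these data known. Symbols caught by the splicing pattern that are not splicing genes (Cdc50, Prps and Srp54k) were taken out after that list's values were seen. Named genes were the 15 with the largest difference in bp per direction among called genes (CG and CR numbers left out), up to 3 per list and direction, all H3K36, MSL and variant genes, genes under the 8 widest peaks of each list without a partner, and the 8 with most covered bp in both lists and under 5 points of difference; others are marked as chosen later. Orienting genes by H3K4me3 replaced strand and was chosen after seeing the data. Alternatives were other thresholds, joined peaks, lists without peaks under 500 bp, lists cut to the same number of widest peaks, other gene sets and the 5.5 to 6 h lists.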

Additional observations from a re-analysis of the deposited data

Results flagged for a closer look

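Genes whose difference between the genotypes changed direction with age were singled out. At 4.5 to 5 h 17 genes were called higher in HisC that were called lower at 5.5 to 6 h, and 2 genes (ave and CG15515) went the other way. These are 5.88% of the 289 higher genes and 0.261% of the 765 lower ones, where 17.7% and 3.03% of all genes with a peak were called lower and higher at 5.5 to 6 h. The difference between the ages was not tested. The shares over all genes are not matched for coverage or length. Among the 17, Med, the fly SMAD4, had no peak in w1118 and 73.3% of its body covered in HisC at 4.5 to 5 h, and 52.2% and no peak at 5.5 to 6 h. RpS3A had 33.7% of its body in w1118 peaks and 95.6% in HisC peaks, and later its whole body and 45.6%. RpL35 had no peak in w1118 and 55.4% in HisC, and later its whole body and 47.4%. In these 3 genes w1118 had more coverage at the later age and HisC had less.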

How the results depend on the processing

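No paired analysis was possible because each group has 1 pooled list and no value per library; for the same reason no library could be left out. Of 1402 genes marked in w1118 only and 596 in HisC only, 738 and 322 were among genes that overlap no other, and the second count was 964 at a threshold of 25% and 317 at 75%. The 765 lower and 289 higher genes became 1693 and 919 at 25 points, 332 and 76 at 75 points, and 385 and 166 without overlapping genes. At 5.5 to 6 h 1408 genes were lower. With peaks joined across gaps of up to 2000 bp, an alternative chosen after seeing the data, 454 were higher; joining across 500 bp altered nothing, since the smallest gap is 1087 bp in w1118 and 1008 bp in HisC. Lower genes outnumbered higher ones in every one of these settings.

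The overlapped share of w1118 peaks was 58.9% when 50% of the peak had to be overlapped, 69.2% with equal numbers of the widest peaks and 79.2% with joined peaks. That of HisC peaks was 54.5%, 71.1% and 64.9%, and 68.0% with peaks of at least 500 bp. With equal numbers of peaks the higher share was that of HisC, and the order of the shares turned over. The log2 ratio on chromosome 4 was −1.92 at 5.5 to 6 h, and the difference in the first and last decile of genes −26.8 and −11.8 points at that age. All 14 lists with a mean difference of at least 10 points kept its sign in all 70 values under the alternatives. Over all 31 lists 147 of 155 values kept the sign, and of the 8 that did not, 5 were at 5.5 to 6 h, where the mean difference turned from 2.64 to −11.3 points for dorsal ectoderm and amnioserosa, from 1.99 to −2.48 for maternal germline, from 0.36 to −5.96 for gap and pair-rule and from 2.46 to −0.45 for early mesoderm genes. The depth behind each list is unknown and limits every value; its part in the number and width of peaks was not tested.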
